A study of Mus musculus with 3 samples.

Results

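The mitochondrial carriers are the Slc25 family, proteins that move nucleotides, phosphate, amino acids, acids of the tricarboxylic acid cycle and cofactors across the inner mitochondrial membrane. Their genes were taken from the mouse muscle data by name alone, as every gene row whose symbol is Slc25a followed by digits, which gave 47 of 24481 rows. Each symbol stood on 1 row. Messenger RNA of skeletal muscle had been taken at postnatal day 42 from outbred mice of the ICR stock and read by sequencing from the 3′ end of the transcripts, in 3 libraries with 1 library per group. The groups were exercise plus SQH, in which exercised mice received the treatment labelled SQH, the exercise control, which was exercised, and the control. The study's title names leaf extracts of Sasa quelpaertensis and fatigue. The labels used here state neither the muscle, the exercise protocol and the dose nor whether a library pools animals, and SQH is not spelled out there.

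The values are deposited log2 levels adjusted for library size, with 0 as the floor. The spacing of the low values put the libraries at about 12.4 M reads with SQH, 8.12 M in the exercise control and 10.8 M in the control. Single libraries allow neither a spread between replicates nor a test, so differences are described by size. Calls, higher or lower, needed a log2 difference of 1 or more (2-fold) together with a mean linear level of at least 66.5 over the 3 libraries, a minimum that left 7857 rows. The ± beside a difference is the standard error of counting reads and covers neither animals nor library preparation. Of the 47 members, 25 passed the minimum, and none of these was at 0 in any library. Another 12 were above 0 in all 3 libraries but under the minimum, 6 were at 0 in 1 or 2 libraries, and 4 were at 0 throughout. The members nearest to the minimum were Slc25a27 (mean linear level 61.3) and Slc25a23 (56.1) just under it, and Slc25a25 (82.1) and Slc25a16 (88.8) just above it.

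Mitochondrial carriers share a fold built of repeated membrane-spanning pairs and alternate between facing the cytosol and the matrix. In muscle the ADP/ATP carrier and the phosphate carrier supply ATP synthase and export its product, the acylcarnitine carrier brings in fatty acids for oxidation, and the aspartate/glutamate and oxoglutarate carriers together move reducing equivalents from glycolysis into the matrix. A smaller group, the ATP-Mg/phosphate carriers, sets the amount of adenine nucleotide inside the matrix, and several of its members are switched by cytosolic calcium.

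Among the 25 members past the minimum, Slc25a25 and Slc25a29 alone reached the 2-fold size in all 3 comparisons, so the regions around their transcription starts are shown before the values. RefSeq promoter sequences (GRCm38.p6, 250 bases before to 50 after a start) were at hand for 36 of the 47 members, with 46 starts. Slc25a25 has 3 starts, all on the minus strand of chromosome 2, at chr2:32451421-32451720, chr2:32431102-32431401 and chr2:32424017-32424316. Slc25a29 has 1, on the minus strand at chr12:108835827-108836126. Reads from the 3′ end count transcripts from all starts of a gene together. Capitals mark TGACGTCA, the cyclic AMP response element, a motif chosen after the values of Slc25a25 were known and the same on both strands.
Slc25a25 start 1: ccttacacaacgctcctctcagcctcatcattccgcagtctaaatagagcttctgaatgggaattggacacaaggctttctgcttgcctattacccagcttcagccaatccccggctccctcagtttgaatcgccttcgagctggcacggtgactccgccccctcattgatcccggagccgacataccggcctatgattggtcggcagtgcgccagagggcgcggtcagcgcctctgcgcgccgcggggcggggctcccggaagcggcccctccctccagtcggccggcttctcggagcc
Slc25a25 start 2: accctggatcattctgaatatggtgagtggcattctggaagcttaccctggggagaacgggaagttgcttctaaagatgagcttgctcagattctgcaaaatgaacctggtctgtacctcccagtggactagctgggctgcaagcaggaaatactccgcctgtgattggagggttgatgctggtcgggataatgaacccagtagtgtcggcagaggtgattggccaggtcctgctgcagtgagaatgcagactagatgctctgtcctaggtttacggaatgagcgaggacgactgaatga
Slc25a25 start 3: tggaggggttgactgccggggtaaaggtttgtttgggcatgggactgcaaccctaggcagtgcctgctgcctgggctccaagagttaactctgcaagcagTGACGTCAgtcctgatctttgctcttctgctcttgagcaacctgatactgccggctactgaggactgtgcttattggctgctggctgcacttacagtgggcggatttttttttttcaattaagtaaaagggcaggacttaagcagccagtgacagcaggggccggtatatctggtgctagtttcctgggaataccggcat
Slc25a29 start 1: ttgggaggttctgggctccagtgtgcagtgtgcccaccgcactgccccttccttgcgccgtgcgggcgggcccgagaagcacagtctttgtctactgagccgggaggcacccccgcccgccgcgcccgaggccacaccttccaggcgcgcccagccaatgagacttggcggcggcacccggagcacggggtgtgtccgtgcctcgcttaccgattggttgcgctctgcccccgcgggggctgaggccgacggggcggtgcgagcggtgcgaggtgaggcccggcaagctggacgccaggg

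The 3 starts of Slc25a25 differ in base composition. The start farthest upstream holds 25 CpG dinucleotides at 63% GC, against 7 at 51.3% and 6 at 52.3% for the other two, and the start of Slc25a29 holds 32 at 72.3% GC. TGACGTCA begins 150 bases before the third start of Slc25a25, and Slc25a36 is the only other member with it among the 46 starts, while 1.79% of all 32851 tabulated starts hold it. TNAAGGTCA, the element of estrogen-related receptors, was in none of the 46 starts on either strand and in 1.28% of all starts. The element of NRF1, a regulator of nuclear genes for mitochondria, was searched on both strands as GCGCA then any base then GCGC and was found in a start of Slc25a3 and in that of Slc25a31, against 4.6% of all starts. A match is a string of letters and shows no binding.

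A few carriers made up nearly all of the family's messenger RNA. Because a 3′ library takes about 1 read position per transcript whatever its length, levels of different genes can be set side by side here. Slc25a4, the ADP/ATP carrier of heart and muscle, held 63.6% of the family's reads with SQH (95% Wilson interval 63.3 to 63.9%), 59.5% in the exercise control (59.2 to 59.9%) and 64% in the control (63.6 to 64.3%). Slc25a3, the phosphate carrier, held 18.6% with SQH (18.4 to 18.9%), 21.3% in the exercise control (20.9 to 21.6%) and 17.8% in the control (17.6 to 18.1%). Together with Slc25a11, the oxoglutarate/malate carrier, and Slc25a12, the aspartate/glutamate carrier of muscle and brain, they came to 91.2%, 91% and 91.9% of the family's reads in the same order of libraries. These intervals cover counting error alone. The family as a whole took 0.794% of all reads with SQH, 0.752% in the exercise control and 0.755% in the control.

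**Figure D1:**
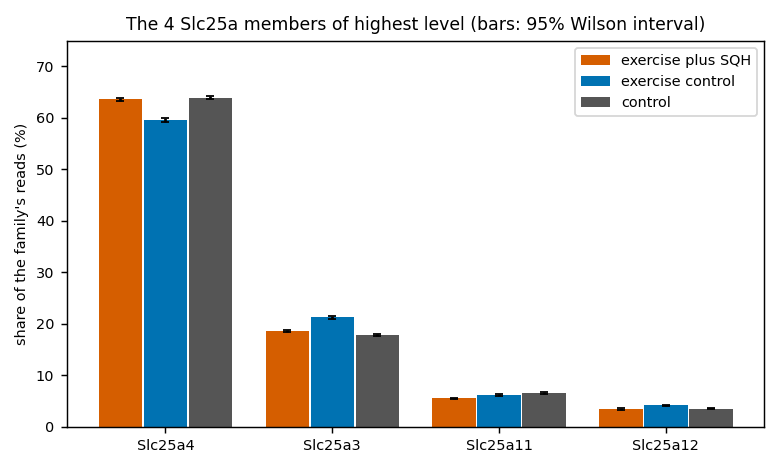
Share of the summed Slc25a reads held by the 4 members of highest level, as percent on the y axis, 1 bar per library, with 95% Wilson intervals for counting error. Slc25a4 holds 63.6% with SQH, 59.5% in the exercise control and 64% in the control, and Slc25a3 holds the next largest share in each library.

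The adenine nucleotide carriers exchange ADP for ATP. Slc25a4 stood at a log2 level of 15.55 with SQH, 15.40 in the exercise control and 15.58 in the control. Slc25a5, the form found in most tissues, stood at 8.59 with SQH, 7.85 in the exercise control and 8.22 in the control. The muscle form thus exceeded the general form 124-fold with SQH, 187-fold in the exercise control and 164-fold in the control. The annotation also holds Slc25a5-ps, a processed pseudogene of Slc25a5, and reads may be shared between them. Slc25a31, the form known from testis, was listed at 0 in the exercise control and the control and at 1.23 with SQH, about 3 reads. Neither Slc25a4 nor Slc25a5 was called in any comparison. Against the control, the exercise control's Slc25a4 level differed by -0.18 as deposited and by 0.00 after quantile normalization. Slc25a5 had its lowest level in the exercise control and differed by 0.75 ± 0.12 between SQH and the exercise control.

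Slc25a3 was at 13.78 with SQH, 13.91 in the exercise control and 13.73 in the control, a spread far below the called size. Slc25a11 was at 12.03, 12.11 and 12.30 and Slc25a12 at 11.34, 11.55 and 11.39 in the same order. Slc25a11 shares 189 exonic bases with Rnf167 on the opposite strand, and strand handling of the counts is not given in the sources used here. Slc25a20, the carnitine/acylcarnitine carrier of fatty acid oxidation, was highest with SQH (9.72), lowest in the exercise control (9.32) and between them in the control (9.47). Its difference of 0.40 ± 0.08 between SQH and the exercise control was not called. These 4 carriers, like Slc25a4, thus differed by less than the called size in every pair of libraries.

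**Figure D2:**
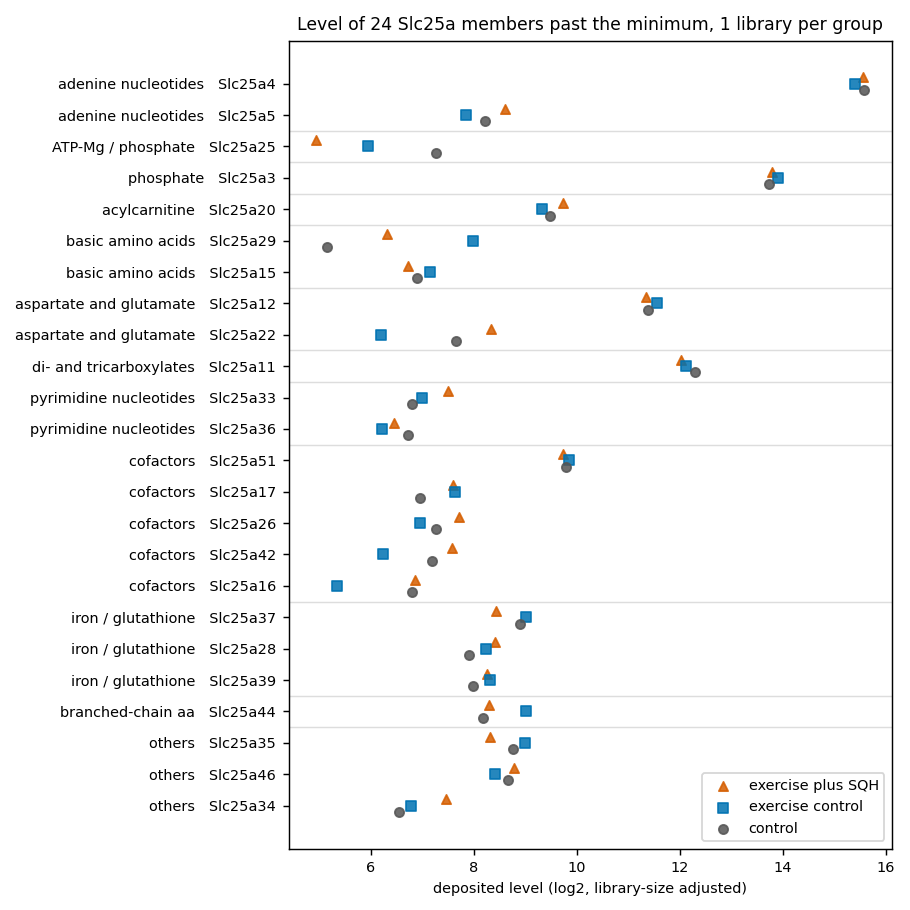
Deposited log2 level of 24 of the 25 Slc25a members past the minimum, grouped by substrate class, with a triangle for exercise plus SQH, a square for the exercise control and a circle for the control, slightly offset for legibility. Slc25a4, Slc25a3, Slc25a11 and Slc25a12 lie far to the right with their 3 symbols close together, while Slc25a25, Slc25a29, Slc25a22 and Slc25a16 show wide gaps at lower levels.

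The basic amino acid carriers move arginine, lysine and ornithine, and Slc25a29 showed the widest gap of the 25 members. Slc25a29 (chr12:108825873-108835883, minus strand) stood at 6.32 with SQH, 7.99 in the exercise control and 5.16 in the control. That corresponds to about 104 reads with SQH, 214 in the exercise control and 37.9 in the control. Both libraries of exercised mice were above the control and the exercise control was the highest. The differences were 2.83 ± 0.25 between the exercise control and the control, -1.67 ± 0.17 between SQH and the exercise control and 1.17 ± 0.27 between SQH and the control. The last of these rests on a low control level and fell short of the called size, at 0.98, when 10 was added to the linear levels. Slc25a29 passed the minimum through the exercise control library, in which it is high, and did not pass a minimum computed from the SQH and control libraries alone. Slc25a15, the ornithine carrier of the urea cycle, was at 6.72 with SQH, 7.14 in the exercise control and 6.90 in the control, with no call. Slc25a2, the other ornithine carrier, was listed at 0 in all 3 libraries.

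The ATP-Mg/phosphate carriers had 1 member past the minimum, Slc25a25, which has been studied in mouse muscle for its part in energy use. Slc25a25 (chr2:32414487-32451445, minus strand) stood at 4.94 with SQH, 5.95 in the exercise control and 7.27 in the control, about 40 reads with SQH, 52 in the exercise control and 164 in the control. It was called lower in all 3 comparisons. The difference was -2.33 ± 0.25 between SQH and the control (5.02-fold), -1.32 ± 0.23 between the exercise control and the control and -1.01 ± 0.30 between SQH and the exercise control. The last value sits at the threshold, and with 10 added to the linear levels it was -0.82 and not called. Slc25a25 passed the minimum through the control library, in which it is high, so all 3 of its calls depend on that library's level. It did not pass a minimum computed from the SQH and exercise control libraries alone. Slc25a25 shares 379 exonic bases with Naif1 on the opposite strand, and Naif1 was at 4.475 with SQH, 5.42 in the exercise control and 5.04 in the control. Reads that fall in those shared bases cannot be told apart without strand.

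The other members of that class were under the minimum and did not share 1 direction. Slc25a23 was at 4.62 with SQH, 5.98 in the exercise control and 6.33 in the control, so it was lowest with SQH, like Slc25a25. Slc25a24 was at 5.82 with SQH, 4.25 in the exercise control and 4.16 in the control, so it was highest with SQH. In the control Slc25a25 exceeded Slc25a24 by 3.11 ± 0.35 on the log2 scale, in the exercise control by 1.70 ± 0.41, and with SQH it lay below it at -0.88 ± 0.28. Slc25a41 was listed at 0 in all 3 libraries.

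Among the aspartate and glutamate carriers, Slc25a22, which carries glutamate with a proton, was low in the exercise control. Slc25a22 (chr7:141429744-141437892, minus strand) stood at 8.34 with SQH, 6.20 in the exercise control and 7.65 in the control. The exercise control library, with about 62 reads against 422 with SQH and 214 in the control, was the lowest. The difference was -1.45 ± 0.21 between the exercise control and the control and 2.13 ± 0.20 between SQH and the exercise control, whereas the 0.69 ± 0.12 between SQH and the control was not called. Slc25a13, citrin, the aspartate/glutamate carrier of liver, was under the minimum and also lowest in the exercise control, at 5.53 with SQH, 4.42 in the exercise control and 5.93 in the control. Slc25a12 exceeded it 56.3-fold with SQH, 140-fold in the exercise control and 43.9-fold in the control. Slc25a18, the second glutamate carrier, was listed at 0 with SQH, 3.23 in the exercise control and 2.23 in the control.

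The cofactor carriers comprise 7 members, of which 6 passed the minimum, and Slc25a16 and Slc25a42 had their lowest level in the exercise control. Slc25a16 (chr10:62920633-62946498, plus strand), which is linked to coenzyme A in the matrix, was at 6.85 with SQH, 5.34 in the exercise control and 6.79 in the control. The exercise control thus stood apart from the other libraries, which differed by 0.06 ± 0.18. The difference was -1.45 ± 0.28 between the exercise control and the control and 1.51 ± 0.27 between SQH and the exercise control. Slc25a42 (chr8:70184340-70212305, minus strand), which exchanges coenzyme A for adenine nucleotides, was at 7.575 with SQH, 6.23 in the exercise control and 7.19 in the control. It was called between SQH and the exercise control (1.35 ± 0.20) and missed the called size between the exercise control and the control (-0.97 ± 0.22).

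None of the other cofactor carriers past the minimum was called. Slc25a51, the NAD carrier, was nearly level at 9.73 with SQH, 9.85 in the exercise control and 9.785 in the control. Slc25a26, which imports S-adenosylmethionine, was highest with SQH at 7.72, against 6.95 in the exercise control and 7.27 in the control. It shares 144 exonic bases with Lrig1 on the opposite strand, which was at 7.70 with SQH, 6.76 in the exercise control and 7.42 in the control, the same order of libraries. Slc25a17, a carrier of the peroxisomal membrane, was higher in both libraries of exercised mice, at 7.60 with SQH and 7.64 in the exercise control, against 6.95 in the control. Slc25a32, the folate or FAD carrier, was under the minimum with about 28 reads with SQH, 2.05 in the exercise control and 14 in the control.

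Iron for heme and iron-sulfur clusters enters through the mitoferrins. Slc25a28, mitoferrin 2, was at 8.41 with SQH, 8.23 in the exercise control and 7.90 in the control, and Slc25a37, mitoferrin 1, the form of red cell precursors, was at 8.43, 9.02 and 8.89 in the same order. Their difference on the log2 scale, mitoferrin 2 minus mitoferrin 1, was -0.02 ± 0.10 with SQH, -0.79 ± 0.11 in the exercise control and -0.997 ± 0.11 in the control. The log2 of the summed linear levels of the 7 erythroid markers was nearly even, at 13.28 with SQH, 13.31 in the exercise control and 13.37 in the control. Slc25a39, the glutathione carrier, was lowest in the control (8.26 with SQH, 8.30 in the exercise control and 7.985 in the control). Slc25a40, its close relative, and Slc25a38, the glycine carrier of heme synthesis, were under the minimum at levels of 4.89 to 5.98.

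Slc25a44, which carries branched-chain amino acids, was highest in the exercise control at 9.01, with 8.29 under SQH and 8.17 in the control. The gap of 0.84 ± 0.11 to the control was, among the 25 members past the minimum, the largest positive one after that of Slc25a29 in that comparison and was not called. The pyrimidine nucleotide carriers were highest in different libraries, and neither was called. Between SQH and the exercise control both differences were above 0, at 0.495 ± 0.17 for Slc25a33 and 0.22 ± 0.23 for Slc25a36. Slc25a33 was highest with SQH (7.50, against 7.003 in the exercise control and 6.79 in the control), and Slc25a36 was highest in the control (6.44 with SQH, 6.23 in the exercise control and 6.73 in the control). Of the members with no settled substrate, Slc25a34 was highest with SQH, at 7.46, against 6.79 in the exercise control and 6.54 in the control, a difference of 0.92 ± 0.17 from the control that was not called. Slc25a35 was lowest with SQH (8.31, against 8.99 in the exercise control and 8.75 in the control). It shares 1151 exonic bases with Rangrf on the opposite strand, which had the same order (9.09 with SQH, 9.54 in the exercise control and 9.345 in the control). Slc25a46, an outer membrane protein of mitochondrial shape, was at 8.78 with SQH, 8.40 in the exercise control and 8.67 in the control.

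The first comparison asked how muscle of exercised mice differed from muscle of the control. In the exercise control, 1 of the 25 members was called higher (4%, against 2.95% of all 7857 rows) and 3 were called lower (12%, against 5.33%). The higher gene was Slc25a29 and the lower ones were Slc25a25, Slc25a16 and Slc25a22. The median difference of the members was 0.12, beside -0.05 over all rows, with 14 members above 0 and 11 below. With 25 members, 1 gene alone is 4%, so these shares are coarse.

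The exercise control library stood apart from the other libraries in genes outside the family. All 9 slow-fibre markers were called lower in it than in the control, and their summed log2 level was 18.76 with SQH, 15.58 in the exercise control and 19.09 in the control, with none at 0. All 5 tested of 7 nerve and Schwann cell markers were called higher in it, with sums of 10.37 with SQH, 12.11 in the exercise control and 10.28 in the control. The sums of the 9 fast-fibre markers were 18.99 with SQH, 19.64 in the exercise control and 19.19 in the control, and those of the 7 adipocyte markers, of which Lep was at 0 throughout and Cidec in the exercise control, were 12.34, 11.78 and 12.03. The part of these shifts in the values of Slc25a16, Slc25a22, Slc25a29 and Slc25a42 was not tested. In bulk muscle, fewer fibres of a type and less RNA per fibre cannot be told apart. The labels do not state the muscle, so a difference in the muscle sampled cannot be told apart from these either. The exercise control was the highest library for 11 members and the lowest for 9, that is for 80% of members, beside 74.4% of all rows past the minimum.

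**Figure D3:**
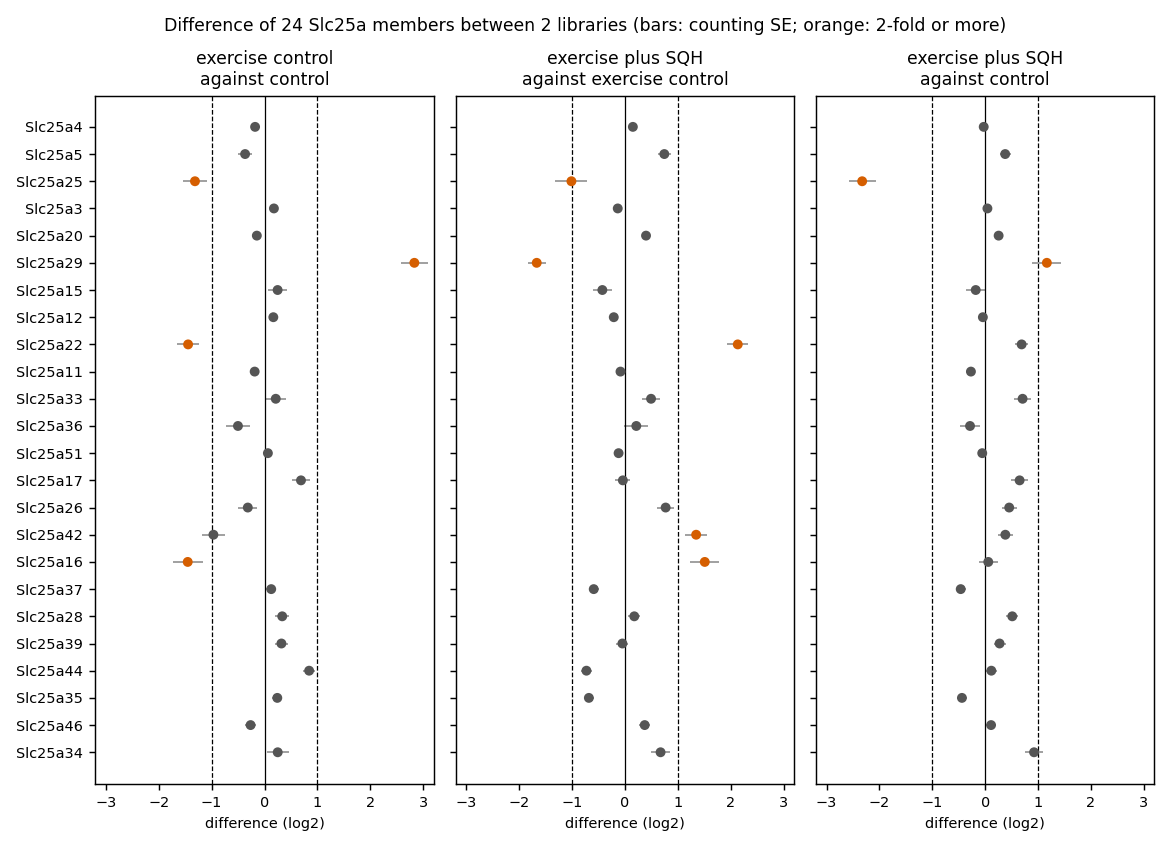
Difference in log2 level of 24 of the 25 members for the 3 comparisons, with bars for the counting standard error, dashed lines at the called size of 1 and orange points for called members. Slc25a25 is below the lower line in every panel, and Slc25a29 is above the upper line in the first and last panels and below the lower line in the middle one.

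The second comparison asked what SQH added in exercised mice. With SQH, 3 of 25 members were called higher than in the exercise control (12%, against 5.68% of all rows), namely Slc25a22, Slc25a16 and Slc25a42, and 2 were called lower (8%, against 2.33%), namely Slc25a29 and Slc25a25. The lower count was 1, Slc25a29, with the minimum computed from the compared libraries alone. Over all rows 446 were higher and 183 lower, which became 356 and 252 after centring each library on its median. The members' median difference was -0.04, beside 0.03 over all rows, with 12 above 0 and 13 below. This comparison shares the exercise control library with the first, so the values of a member in both are not separate evidence. In the same comparison all 9 slow-fibre markers were called higher and all 5 tested nerve markers lower. Of the 9 fast-fibre markers, 8 lay below 0 and 2 were called lower, Myh4 and Atp2a1. Of the 3 tested adipocyte markers, 2 were called higher, Cfd and Cidea.

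The comparison of SQH with the control leaves the exercise control library out of the difference. Here 1 member was called higher (4%, against 1.76% of all rows) and 1 lower (4%, against 1.26%), Slc25a29 and Slc25a25. Their values are those given above. The members' median difference was 0.11, beside -0.02 over all rows, with 15 above 0 and 10 below. None of the slow-fibre or nerve markers past the minimum was called in this comparison, and 1 of 3 tested adipocyte markers, Cfd, was called higher. With the minimum computed from the SQH and control libraries alone, 0 members were called higher, and with 10 added to the linear levels the higher count was likewise 0. Slc25a25 was still called lower with that minimum. The minimum includes the control library, in which Slc25a25 is high, so it is no check on this call.

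**Figure D4:**
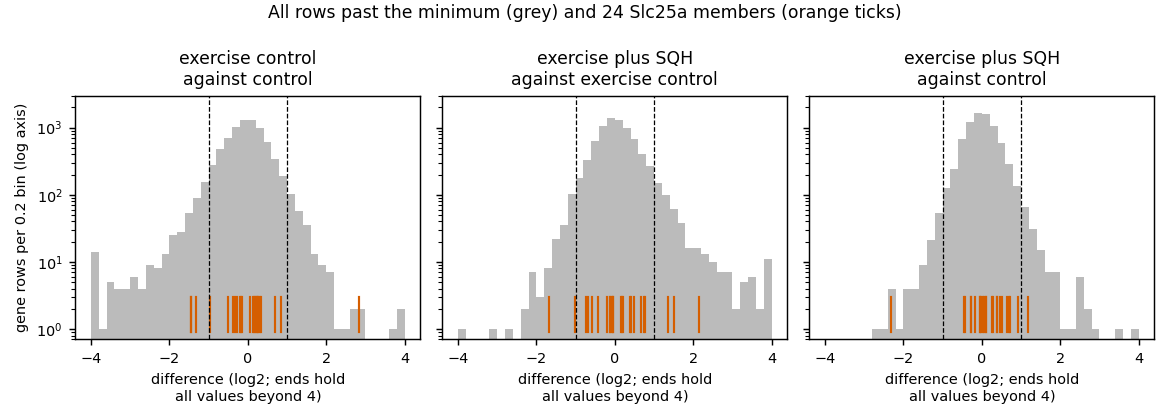
Histogram of the log2 differences of all 7857 rows past the minimum in grey, on a log axis of rows per bin, with 24 of the 25 Slc25a members as orange ticks and dashed lines at the called size of 1. Most members lie in the centre of each distribution, Slc25a29 is the rightmost member tick in the first panel, and Slc25a25 is the leftmost member tick in the last.

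Calls lay among the members of lower level. All 5 genes called in any comparison belong to the 11 members past the minimum whose mean level is below that of the 3929 highest rows. The other 14 members, among them Slc25a4, Slc25a3, Slc25a20 and Slc25a51, ranged from -0.37 (Slc25a5) to 0.84 (Slc25a44) between the exercise control and the control, from -0.73 (Slc25a44) to 0.75 (Slc25a5) between SQH and the exercise control, and from -0.46 (Slc25a37) to 0.51 (Slc25a28) between SQH and the control. Of those 3929 rows, 5.93%, 5.55% and 1.48% were called in these comparisons, beside 8.29%, 8.01% and 3.02% of all 7857 rows. Calls were thus rarer among the highest rows in general, and with shares this low the absence of calls among 14 members is not a trait of the family. The gap between a member's highest and lowest library had a median of 0.59, beside 0.485 over all rows.

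Among the 22 members under the minimum, a handful had large differences on few reads. Slc25a27, a relative of the uncoupling proteins known from brain, was higher in both libraries of exercised mice, at 6.23 with SQH and 6.35 in the exercise control, against 4.77 in the control. Slc25a45 was highest in the exercise control, at 6.27, with 4.97 under SQH and 4.86 in the control. Slc25a10, the dicarboxylate carrier, was highest with SQH, at 5.96, with 5.34 in the exercise control and 4.995 in the control. Slc25a47, known from liver, Slc25a14, another relative of the uncoupling proteins, and Slc25a1, the citrate carrier, stayed at 5.30 or below in every library. Slc25a30 and Slc25a31 were above 0 with SQH alone, Slc25a21 in the exercise control alone, and Slc25a48 and Slc25a53 in the control alone, at no more than about 6 reads each. Slc25a2, Slc25a41, Slc25a43 and Slc25a54 were listed at 0 in every library, which at this depth does not show that they are absent.

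**Figure D5:**
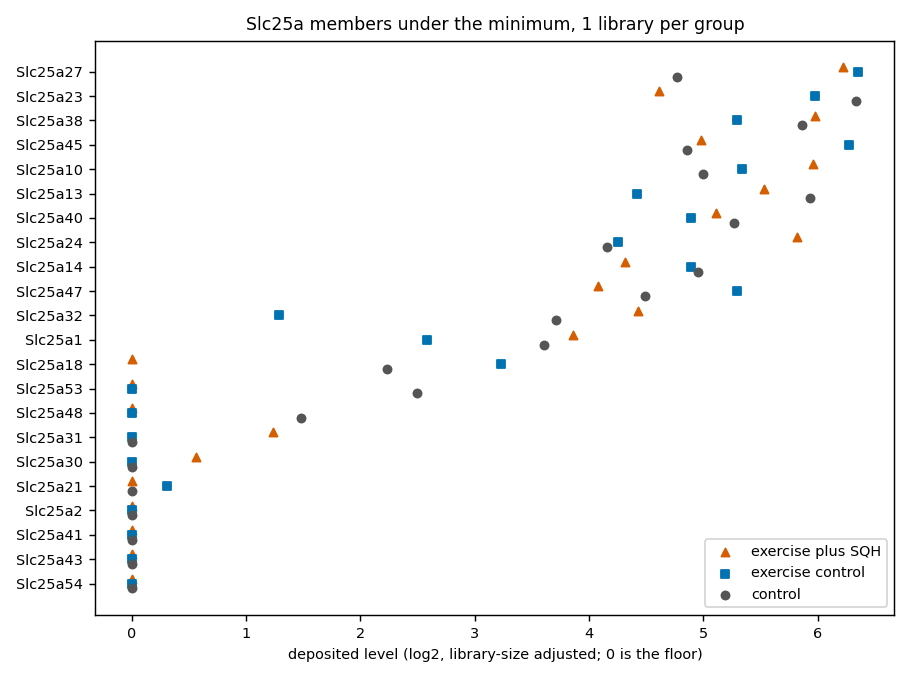
Deposited log2 level of the 22 Slc25a members under the minimum, with a triangle for exercise plus SQH, a square for the exercise control and a circle for the control, and symbols at 0 on the floor of the files. Slc25a27 is lower in the control than in both other libraries, and 4 members sit at 0 in all 3.

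Other genes of mitochondrial exchange were followed as a list of 31 genes, of which 25 passed the minimum. In the exercise control against the control, 1 was called higher (4%, against 2.95% of all rows) and 1 lower (4%, against 5.33%). With SQH against the exercise control, 1 was called higher (4%, against 5.68%) and none lower (against 2.33%). With SQH against the control, none was called higher (against 1.76%) and 1 lower (4%, against 1.26%). A single gene is 4% of this list, so these shares are coarse. Timm22, the pore that inserts carriers into the inner membrane, was at 10.35 with SQH, 11.00 in the exercise control and 12.74 in the control. Its differences from the control were -2.39 ± 0.04 with SQH and -1.74 ± 0.04 in the exercise control, and the control library was by far the highest. None of the small Tim proteins that guide carriers to that pore was called. Timm9 was at 8.38 with SQH, 8.01 in the exercise control and 8.12 in the control, Timm10 at 8.81, 8.63 and 9.14, and Timm10b at 8.88, 8.86 and 8.82 in the same order. Sfxn3, a sideroflexin, was called higher in the exercise control (6.61 with SQH, 7.07 in the exercise control and 5.69 in the control). Micu2, a gatekeeper of the calcium uniporter, was called higher with SQH than in the exercise control (8.74 with SQH, 7.74 in the exercise control and 8.63 in the control), at a difference of 1.002 that only just meets the called size.

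The uncoupling protein of muscle, the pyruvate carrier and the outer membrane channels showed no call. Ucp3 was at 8.81 with SQH, 9.27 in the exercise control and 8.44 in the control. Mpc1 was at 9.22, 9.07 and 9.20 and Mpc2 at 10.98, 10.87 and 11.13 in the same order. Vdac1, an outer membrane channel, was at 13.04 with SQH, 12.82 in the exercise control and 12.66 in the control. Cpt1b, which makes the acylcarnitine that Slc25a20 carries, was at 12.32 with SQH, 12.14 in the exercise control and 12.43 in the control. These partners of the carriers therefore differed by less than the called size in every pair of libraries.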

How the data were processed

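Per the labels' protocols, RNA was extracted with Trizol and 500 ng per sample was made into Lexogen QuantSeq 3′ libraries. Bowtie2, edgeR and the build mm10 appear in the submitters' processing notes, without versions or roles. Which counter, annotation and strand setting made the values is not stated there. The deposited files hold 1 log2 value per gene row. Their linear values bunch at whole multiples of a step (0.766 with SQH, 1.19 in the exercise control, 0.939 in the control). Among low linear values (9 or less), the share no farther than 0.2 step from a multiple was 84.6%, 95.7% and 100%. Dividing by the step gave approximate reads, from which counting errors and Wilson intervals were computed.

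Groups come from the sample titles. With 1 library per group no count model was fitted and calls are by size. The minimum on the mean linear value is the median of the 15714 rows above 0 in any library. Members, substrate classes and lists were chosen with earlier results of these data known. By rule, members past the minimum are given with all 3 values and the others by name and range, though several of these are given with all 3 values too, a choice made after they were seen. The values of 1 member past the minimum, which entered the counts and medians, are not reported here. Alternatives were centring, quantile normalization, other minimums, a pseudocount of 10 and a 1.5-fold size. Gene positions and exonic overlaps are from GENCODE M21 (GRCm38) and promoters from RefSeq. Python 3.11.15, pandas 2.3.3, scipy 1.17.1 and matplotlib 3.10.9 were used. Protein sequences were not used here.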

Additional observations from a re-analysis of the deposited data

How the results depend on the processing

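Centring and quantile normalization called the same members as the deposited values in all 3 comparisons (4, 5 and 2 members). Under centring the direction of Slc25a3 between SQH and the control was 0, and under quantile normalization Slc25a4 (0.06) and Slc25a12 (0.01) lay above 0 there. Quantile normalization also moved Slc25a3 to 0.39 between the exercise control and the control and to 0.18 between SQH and the control, and the adenine nucleotide class median to -0.16 between the exercise control and the control. With no minimum, the exercise control had 4 higher and 6 lower members against the control, SQH had 7 higher and 5 lower against the exercise control (median 0.15), and SQH had 3 higher and 2 lower against the control. That is 26.3%, 32.4% and 13.5% of members, beside 20.3%, 19.4% and 14% of all rows above 0 in both libraries. In the 3929 rows of highest mean level 0 members were called in any comparison, higher or lower, and the median between SQH and the control was 0.007. At 1.5-fold, the exercise control had 3 higher members against the control, SQH had 6 higher and 5 lower against the exercise control, and SQH had 5 higher against the control. With both directions, 28%, 44% and 24% of members were then called, beside 25.6%, 24% and 13.8% of all rows. A pseudocount of 10 left 1 lower member with SQH against the exercise control, Slc25a29, and 0 higher with SQH against the control. A minimum from the compared libraries alone, an alternative chosen after seeing the data, left the calls of the exercise control against the control as they were, 1 lower with SQH against the exercise control, since Slc25a25 no longer passed, and 0 higher with SQH against the control, since Slc25a29 no longer passed. With the control among the compared libraries, that minimum still includes the library in which Slc25a25 is high. No replicate could be left out and no paired analysis was possible because each group has 1 library. Depth limits the members under the minimum most, at standard errors up to 1.08 (Slc25a32).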

Other observations

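Among the members, 4 pairs are close neighbours in GRCm38. Slc25a29 and Slc25a47 lie 162 bases apart on opposite strands of chromosome 12, and both had their highest level in the exercise control, Slc25a29 at 7.99 and Slc25a47 at 5.295. Slc25a47 was under the minimum, with about 33 reads there, and exceeded the control by 0.80 ± 0.39. The exercise control was the highest library for 2696 of all 7857 rows past the minimum, so a peak there is common. Slc25a23 and Slc25a41 lie 2056 bases apart on chromosome 17, Slc25a24 and Slc25a54 lie 6461 bases apart on chromosome 3, and Slc25a5 and Slc25a43 lie 18448 bases apart on chromosome X. In each of these last pairs the first gene had reads in all 3 libraries and its neighbour was listed at 0 throughout. The starts of the members held a median of 15 CpG dinucleotides over 46 starts, beside 7 over all 32851 tabulated starts.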
